A study of Mus musculus with 6 samples.

Results

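The primitive endoderm genes followed here are 9 genes that mark or build the extra-embryonic endoderm of the early mouse embryo: Gata4, Gata6, Sox17, Sox7, Foxa2, Hnf4a, Dab2, Pdgfra and Amn. They were taken by gene symbol from a deposited table of 23412 genes. All 9 passed the filter for testing, a mean normalized count of at least 5 over the 6 libraries, which left 14276 genes. The RNA-seq data came from 2 lines of 129Sv mESCs. R1 is wild type, and HN is Htt nullizygous, with the promoter and exon 1 of Htt deleted on both alleles. Both lines were kept undifferentiated and without feeder cells on gelatin, in serum with leukemia inhibitory factor and 3 small molecules, SU5402 (against the VEGF and FGF receptors), PD184352 (against MEK) and CHIR99021 (against GSK3). Each line gave 3 libraries, 1 from each of 3 collection dates that both lines shared, and the replicate number is the number of the date. Each genotype was 1 line, so the effect of Htt and any other difference between these lines cannot be told apart.

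Primitive endoderm is the layer of the blastocyst that forms beside the pluripotent epiblast and later gives the visceral and parietal endoderm of the yolk sacs. FGF signalling through the ERK kinases drives inner cell mass cells toward it, and GATA6 turns on the endoderm programme while NANOG holds the epiblast one. SOX17, GATA4, SOX7, FOXA2 and HNF4A follow as transcription factors of the endoderm, and PDGFRA, DAB2 and AMN work at its cell surface.

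Between 1640391 and 3866717 reads were assigned to genes in a library, and between 18133 and 20675 genes had at least 1 read. Htt itself, the targeted gene, had a normalized count of 229 ± 29.0 in R1 and 43.5 ± 22.0 in HN (mean ± SD, n = 3 each), a log2 fold change of −2.52 with an adjusted p of 0.0141 by limma. The pluripotency genes Pou5f1 and Nanog stood at 1320 and 982 normalized counts per kb of exon in R1 and at 1325 and 1187 in HN, against a median of 13.5 and 13.4 over the tested genes. The 9 endoderm genes lay far below them, between 0.781 and 9.85 per kb in R1 and between 0.852 and 7.67 per kb in HN. In bulk RNA, fewer cells of a type and less RNA per cell cannot be told apart.

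Hnf4a was the single gene of the set that separated the lines, and it was lower in HN. R1 averaged 34.0 ± 11.2 normalized counts of it and HN 4.11 ± 3.22 (mean ± SD, n = 3 each), an 8.26-fold difference. The other 8 genes overlapped between R1 and HN, and all of them stood higher in both libraries of date 3 than in any of the other 4. So did 21.3% of all tested genes, and 51.5% of those with a mean normalized count between 5 and 25, where all 9 members lie. A gene is described as called when its Benjamini-Hochberg adjusted p over all tested genes was under 0.05 and its absolute log2 fold change above 1. By limma without regard to date, 0 of the 9 genes were called higher in HN and 0 lower, where 0.119% of all tested genes were called higher and 0.126% lower. With the date as a block, limma called 0 higher and 1 lower (Hnf4a), where 0.911% and 1.04% of all genes were called. At an unadjusted p under 0.05, limma without the block had 0 of the 9 higher and 1 lower, beside 3.15% and 2.75% of all tested genes, and edgeR, a count test on the recovered reads, called 0 in either direction without the block. The median difference of the 9 genes was 0.01 on the log2 scale, beside −0.01 over all tested genes.

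**Figure D1:**
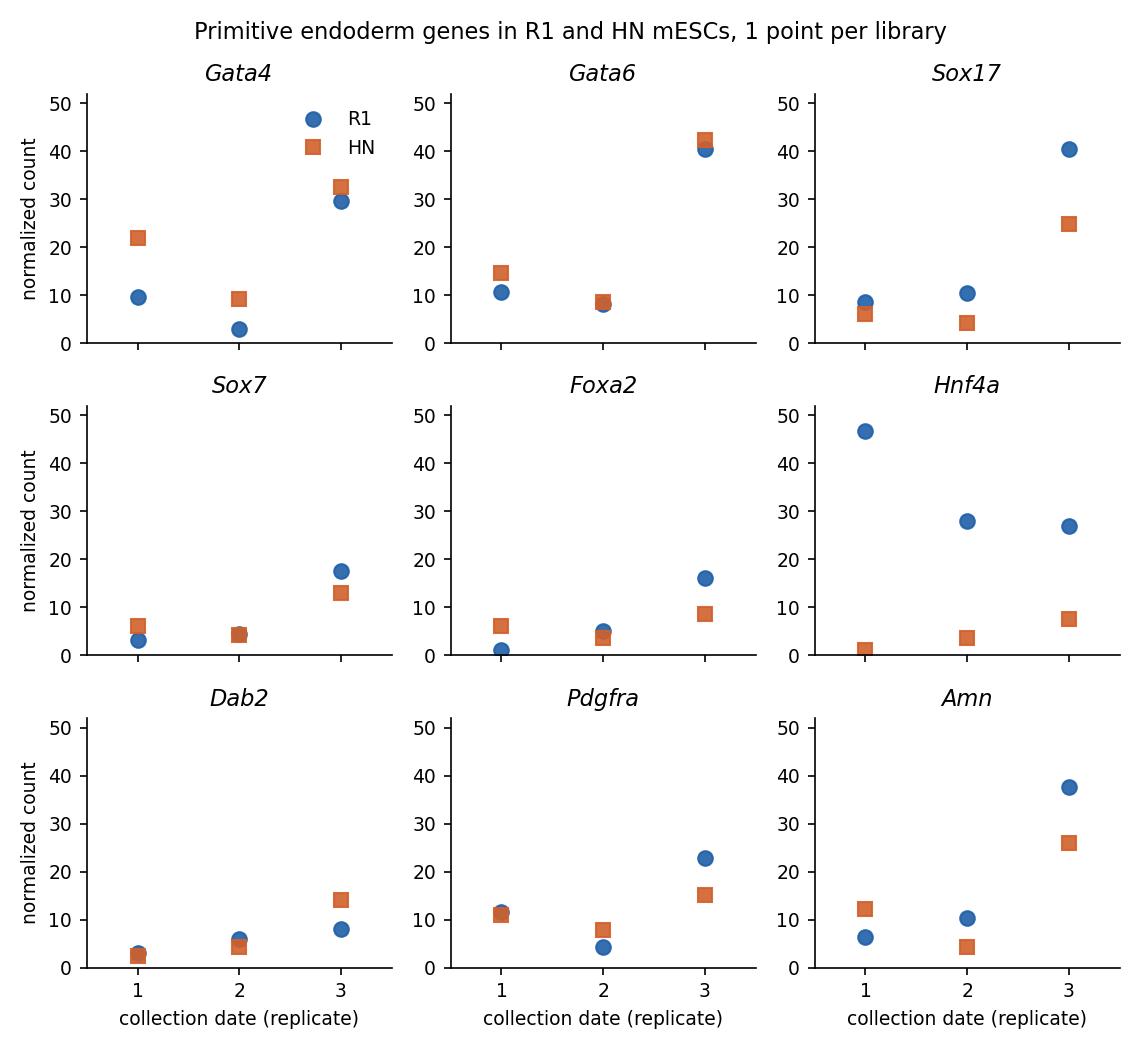
Normalized count (linear axis, same scale in each panel) of the 9 primitive endoderm genes in each library, by collection date on the x axis. R1 libraries are circles and HN libraries squares; Hnf4a is the panel in which the lines stand apart (27.0 to 46.8 in R1 and 1.22 to 7.58 in HN), while in the other panels both lines stand highest at date 3.

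Gata6 and Gata4 encode zinc finger factors that bind GATA sites, and GATA6 acts at the top of the endoderm programme. Across dates 1, 2 and 3 the normalized count of Gata6 stood at 10.6, 8.14 and 40.4 in R1, against 14.6, 8.51 and 42.2 in HN. At each date the lines lay close together, and date 3 was high in both. The difference of HN from R1 was 0.18 (log2, SE 0.66), and 0.42, 0.06 and 0.06 in the same-date pairs.

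Gata4 had normalized counts of 9.58, 2.96 and 29.7 in R1 and of 21.9, 9.21 and 32.5 in HN. HN was above R1 at each of the 3 dates, by 1.11, 1.37 and 0.13 on the log2 scale, yet the ranges of the lines overlapped. The log2 fold change of 0.87 (SE 0.71, or 0.37 with the date block) did not pass the test, with an adjusted p by limma of 0.99998 without the block and 0.144 with it. The libraries held between 4 and 30 reads of Gata4, so counting error is a large part of each value.

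Sox17 and Sox7 encode related SOX factors of the same subfamily, and SOX17 is needed for endoderm. Sox17 had normalized counts of 8.52, 10.4 and 40.4 in R1 and of 6.08, 4.25 and 24.9 in HN. HN was below R1 at each date, with differences of −0.43, −1.11 and −0.68 on the log2 scale, again with overlapping ranges. The log2 fold change of −0.74 (SE 0.73, or 0.38 with the block) did not pass, with an adjusted p by limma of 0.267 with the block. Of the exon bases of Sox17, 16.9% lie under exons of an opposite-strand transcript, Gm37587, and the library kit did not mark strand, so reads there cannot be assigned to one or the other.

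Sox7 was lower still, with 3.19, 4.44 and 17.5 in R1 and 6.08, 4.25 and 13.0 in HN. The pairs went both ways (0.76, −0.05 and −0.40), and the log2 fold change was 0.10 with an SE of 0.77. Sox7 and Gata4 are neighbours on chromosome 14, with a gap of 671980 bp between them.

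Foxa2 and Hnf4a encode a forkhead factor and a nuclear receptor that act together on endoderm and liver genes. Foxa2 lies at chr2:148042877-148046969 on the minus strand and Hnf4a at chr2:163506808-163572910 on the plus strand (GRCm38, GENCODE M21). Foxa2 had normalized counts of 1.06, 5.18 and 16.2 in R1 and of 6.08, 3.54 and 8.66 in HN, and R1 replicate 1 held 1 read of it. HN was above R1 at date 1 by 1.78 and below it at dates 2 and 3 (−0.44 and −0.83), so the difference of 0.17 (SE 0.90) had no steady direction.

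The R1 libraries of dates 1, 2 and 3 held 46.8, 28.1 and 27.0 normalized counts of Hnf4a, from 44, 38 and 20 reads. In HN the counts were 1.22, 3.54 and 7.58, from 1, 5 and 7 reads. Every HN library was below every R1 library, which was so for 5.54% of all tested genes (5.23% had every HN library above every R1 library). HN replicate 1 was under the detection limit of 3 reads, and the highest HN library was at date 3, where R1 was lowest.

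The log2 fold change of Hnf4a was −2.94 with an SE of 0.59, and the same-date pairs gave −4.43, −2.68 and −1.70. Its adjusted p by limma was 0.0986 without the date block and 9.68e-06 with it (SE 0.43). On the recovered reads edgeR gave an adjusted p of 0.131 without the block, a fit in which it called 0.112% of all genes higher and 0.126% lower. With the block edgeR gave 1.71e-07, with 0.925% of all genes called higher and 1.06% lower. DESeq2, the tool of the original study, gave an adjusted p of 0.00228 without the block (0.421% called higher and 0.281% lower) and 3.85e-04 with it (0.712% and 0.553%). Over 16 alternative settings the difference stayed negative, between −3.56 and −1.64 on the log2 scale. It was called by limma without HN replicate 3 (adjusted p = 0.0146), and without both libraries of date 3 (adjusted p = 0.0310, log2 fold change −3.56, with 0.133% of all genes called lower), but not with any other single library left out (0.0810 to 0.774). An exact permutation test of 3 against 3 libraries cannot give a two-sided p below 0.1. Hnf4a is among the genes that the study itself listed from these libraries, so its direction here is not independent evidence.

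The unequal distance between the lines, −4.43 at date 1 and −1.70 at date 3, was tested as an interaction of line with date 3. The estimate was 1.85 (log2, SE 0.97) with an adjusted p by limma of 0.99991, and 0 of 14276 genes were called for this term (149 had an unadjusted p under 0.05). Per kb of exon, Hnf4a stood above 35.0% of 13430 tested genes with a known length in R1 and above 2.51% of them in HN. No exon base of Hnf4a is shared with its antisense gene Hnf4aos, and none of its 50-base stretches occurs in another gene.

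The sequences before 2 start sites of Hnf4a are shown because Hnf4a is the gene that separated the lines. Of Foxa2 and Dab2 only start 1 is shown, because the stretches before their other starts hold no GATA motif. RefSeq promoter entries (GRCm38.p6) were matched for 5 of the 9 genes (Foxa2, Hnf4a, Dab2, Pdgfra and Amn), and bases inside exons of coding transcripts were left off. Capitals mark the motif GATAA, the core bound by GATA factors, found on the strand shown. The Hnf4a sites are chr2:163506607-163506807 and chr2:163546905-163547154 on the plus strand, the second inside the gene body. The Foxa2 stretch is chr2:148045465-148045714 on the minus strand, inside the gene body, and the Dab2 stretch chr15:6299539-6299787 on the plus strand.
Hnf4a start 1: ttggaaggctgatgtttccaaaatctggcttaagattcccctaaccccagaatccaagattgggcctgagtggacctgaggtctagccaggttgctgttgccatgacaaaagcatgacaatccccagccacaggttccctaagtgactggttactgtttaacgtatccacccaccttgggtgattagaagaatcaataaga
Hnf4a start 2: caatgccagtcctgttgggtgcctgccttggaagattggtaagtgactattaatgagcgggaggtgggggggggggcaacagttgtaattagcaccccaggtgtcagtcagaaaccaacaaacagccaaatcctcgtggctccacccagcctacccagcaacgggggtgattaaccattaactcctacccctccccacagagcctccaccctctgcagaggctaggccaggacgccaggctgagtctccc
Foxa2 start 1: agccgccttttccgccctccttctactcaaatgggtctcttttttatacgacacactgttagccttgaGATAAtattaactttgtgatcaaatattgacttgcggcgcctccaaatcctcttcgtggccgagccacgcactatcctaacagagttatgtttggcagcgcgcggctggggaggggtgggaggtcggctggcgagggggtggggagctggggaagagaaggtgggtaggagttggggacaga
Dab2 start 1: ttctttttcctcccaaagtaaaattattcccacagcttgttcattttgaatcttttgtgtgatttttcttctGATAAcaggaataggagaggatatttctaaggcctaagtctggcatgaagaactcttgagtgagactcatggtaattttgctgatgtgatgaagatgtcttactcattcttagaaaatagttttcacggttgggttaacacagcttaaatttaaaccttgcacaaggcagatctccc

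The letters GATAA were searched on both strands of the 250 bases before each start. They stood 182 bases before Foxa2 start 1, 178 before Dab2 start 1 and 51 before Hnf4a start 1, where the match runs over the end of the stretch printed. They were absent before the other starts of these genes, among them Foxa2 start 3 (chr2:148046970-148047219), which borders the 5' end of the gene. They occur in 22.6% of 32851 promoter windows of that length, so their presence in these 3 genes is a description only. The forkhead letters TGTTTAC (3.17% of windows) and TGTTTGC (4.30%), the SOX letters ACAATG (10.7%), and the HNF4 letters CAAAGTCCA (0.384%) and AGGTCA (14.0%) were not in the windows of the 5 genes.

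Pdgfra encodes the receptor tyrosine kinase that primitive endoderm uses for survival, at chr5:75152292-75198215 on the plus strand. It had normalized counts of 11.7, 4.44 and 22.9 in R1 and of 11.0, 7.80 and 15.2 in HN. The lines overlapped, with HN above R1 at date 2 (0.69) and below it at date 3 (−0.57), and the log2 fold change was 0.01 with an SE of 0.61.

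Dab2 encodes an endocytic adaptor that sorts surface proteins in the endoderm, at chr15:6299788-6440712 on the plus strand. Its normalized counts were 3.19, 5.92 and 8.09 in R1 and 2.43, 4.25 and 14.1 in HN, from 2 to 13 reads a library. Per kb of exon it was the lowest of the 9 genes in R1, at 0.781, and the log2 fold change was 0.01 with an SE of 0.83.

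Amn encodes amnionless, which anchors the uptake receptor cubilin in the visceral endoderm, at chr12:111271095-111276426 on the plus strand. It had normalized counts of 6.39, 10.4 and 37.7 in R1 and of 12.2, 4.25 and 26.0 in HN. HN was above R1 at date 1 (0.83) and below it at dates 2 and 3 (−1.11 and −0.52), so no direction held, and the log2 fold change was −0.27 with an SE of 0.72.

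**Figure D2:**
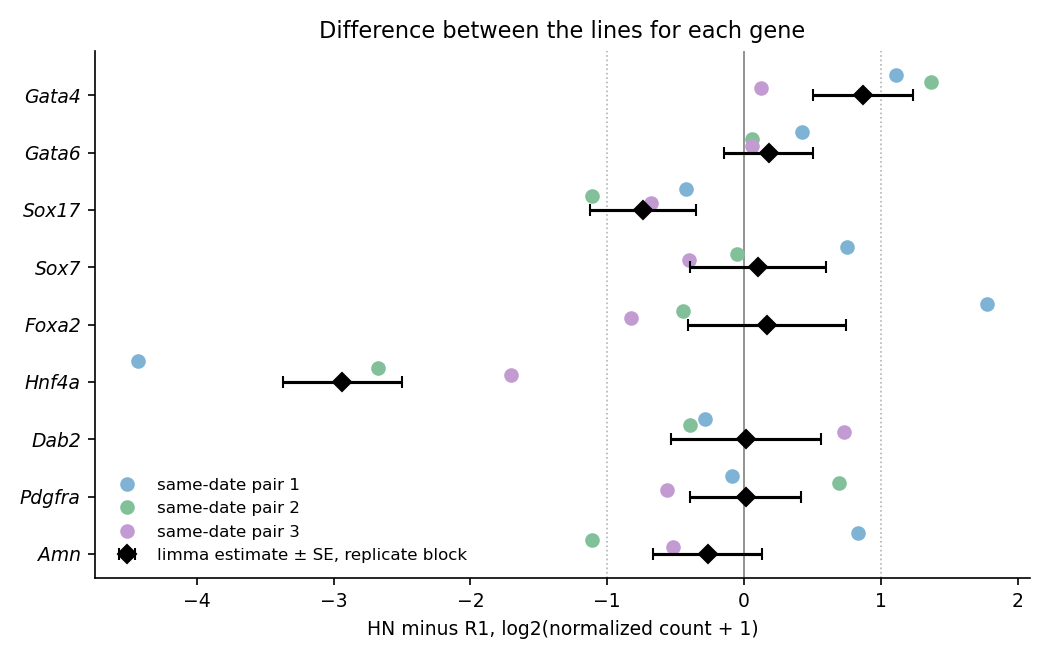
Difference of HN from R1 in log2(normalized count + 1) for each primitive endoderm gene. Coloured points are the 3 same-date pairs, diamonds with bars are the limma estimates ± SE with the date block, and dotted lines mark a log2 fold change of 1 in either direction; Hnf4a lies between −4.43 and −1.70 in its pairs, and the estimates of the other 8 lie between −0.74 and 0.87.

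Levels between genes were compared only per kb of exon. In R1 the order of the mean levels ran from Amn (9.85 normalized counts per kb) over Hnf4a (7.04), Sox17 (4.14), Gata4 (3.60), Foxa2 (3.15), Gata6 (3.03), Sox7 (2.54) and Pdgfra (1.30) to Dab2 (0.781). In HN the order ran from Amn (7.67) over Gata4 (5.43), Gata6 (3.35), Foxa2 (2.57), Sox17 (2.46), Sox7 (2.36), Pdgfra (1.13) and Dab2 (0.943) to Hnf4a (0.852). Hnf4a thus went from the second place to the last. In both orders the range of each gene over the 3 libraries overlapped that of the next gene, so neighbours did not differ beyond their spread.

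The genes were also compared among the 3 collection dates. An F-test over the 3 dates with the line as a term (limma) called 6 of the 9 genes at an adjusted p under 0.05, where 46.0% of all tested genes were called. All 6 were higher at date 3 than at dates 1 and 2, where 19.1% of all tested genes were called in that direction. They were Gata6 (1.92 on the log2 scale, adjusted p by limma of 1.61e-04), Gata4 (1.69, 4.40e-04), Sox17 (2.04, 6.78e-04), Amn (1.89, 0.00180), Pdgfra (1.09, 0.0386) and Sox7 (1.58, 0.0431). Foxa2 (1.52, adjusted p by limma of 0.0918) and Dab2 (1.29, 0.113) did not pass, nor did Hnf4a (0.51, 0.601). On the recovered reads edgeR called the same 6 of the 9 genes, where it called 47.9% of all.

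Single libraries decided some of these calls. Without R1 replicate 3, limma called 3 of the 9 genes among dates (Gata4, Gata6 and Sox17). Without R1 replicate 2 or HN replicate 2 it called 4, those 3 and Amn. Without HN replicate 3 it called 5, all but Sox7 of the 6, and without HN replicate 1 it called 7, with Foxa2 added.

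Both libraries of date 3 were above the other 4 for 8 of the 9 genes, all but Hnf4a, where 21.3% of all tested genes showed this, and below the other 4 for 0 of the 9, where 20.9% did. The ratio of the mean normalized count at date 3 to that at dates 1 and 2 ran from 2.18 (Pdgfra) to 4.47 (Sox17) in these 8. Their summed normalized count was 54.3, 51.8 and 213 in R1 and 80.3, 46.1 and 177 in HN, so the sum was highest at date 3 in both lines and the lines overlapped. Sox7, Foxa2 and Dab2 averaged 4.49, 3.97 and 3.95 at dates 1 and 2, under the filter of 5, and passed it only through date 3. Their height at date 3, and the date call of Sox7, thus rest partly on this selection. The filter acts in the same way on other weak genes.

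Date 3 was also higher for weakly expressed genes in general. Among the 4587 tested genes with a mean normalized count between 5 and 25, where all 9 members lie, both date 3 libraries were above the other 4 in 51.5%, and the median difference was 0.96 on the log2 scale (quartiles 0.24 and 1.65). The 8 members that were high at date 3 had differences above those of 55.0% (Pdgfra) to 88.8% (Sox17) of these genes, and Hnf4a above 34.0%. In genes with a mean of 100 to 1000 the median difference was −0.28.

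Genes of other cell types moved with the date as well. Of 9 fibroblast markers 6 could be tested and 5 were called higher at date 3 by limma, with a summed normalized count of 16.3 to 68.1 at dates 1 and 2 and of 93.1 to 162 at date 3. Of 5 trophoblast markers 4 could be tested and 3 were called higher, with sums of 10.6 to 41.8 and of 73.6 to 83.6. Col1a1, Col6a3, Hand1 and Krt7 averaged 2.23, 4.48, 2.34 and 4.19 at dates 1 and 2, under the filter of 5. They could be tested only through date 3, so their calls rest partly on that selection. Of 12 epiblast and naive pluripotency genes 0 were called higher at date 3 and 9 lower, with sums of 16451 to 19215 and of 12221 to 14211. Among all tested genes with a mean of 100 to 1000, 58.8% were called among dates, with a median difference of −0.28. Above 1000 these values were 76.9% and −0.27, beside a median of −0.34 for the epiblast list. The lists nearer to primitive endoderm went both ways. FGF and ERK signalling had 3 called higher and 12 lower of 20 tested, and basement membrane 2 and 5 of 10. Parietal endoderm had 1 and 3 of 6, and visceral endoderm 4 and 2 of 9. Relatives and ligands of the 9 genes had 5 and 1 of 13, and definitive endoderm and mesendoderm 2 and 2 of 7. Over all 14276 tested genes 2720 were called higher and 3849 lower.

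Olfactory receptor genes, known for their use in the sensory neurons of the nose, were looked at after the values were seen. Of 1102 such genes, 22.7%, 33.9% and 52.6% had at least 1 read in the R1 libraries in the order of the dates, against 30.4%, 27.3% and 52.5% in those of HN. Their summed normalized count was 2.93 times as high at date 3 as at dates 1 and 2. The date 3 libraries were not the deepest, with 1640391 reads in R1 and 2171933 in HN. The dates themselves were compared by the F-tests above. What part the fibroblast or trophoblast markers and the general rise of weak genes had in the values of the endoderm genes was not tested.

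**Figure D3:**
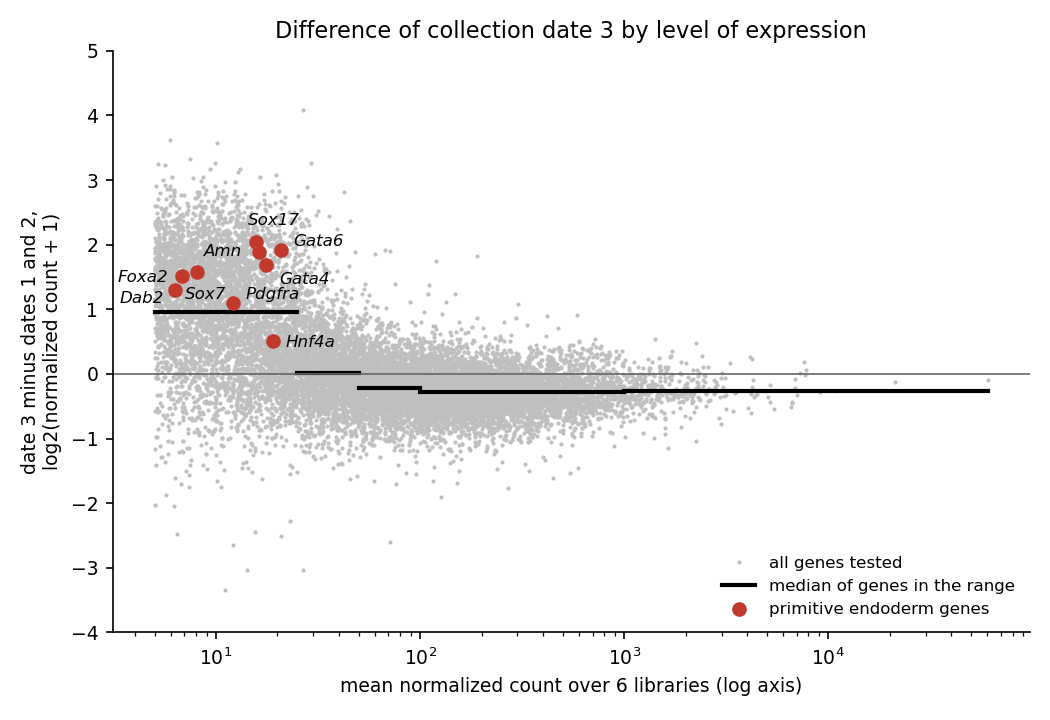
Difference of date 3 from dates 1 and 2 in log2(normalized count + 1), with the lines fitted as a term, against the mean normalized count (log axis) of each tested gene. Grey points are the 14276 tested genes, black bars the median of each range of level, and red points the 9 primitive endoderm genes; the median is 0.96 between 5 and 25, 8 of the 9 genes lie above it, and Hnf4a lies below it at 0.51.

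Genes of the layers and pathways around primitive endoderm were taken as lists, and 0 of their 87 tested genes were called between the lines without the date block by limma or by edgeR, while DESeq2 called 1, Lama1. At an unadjusted p under 0.05, limma without the block had 16.1% of them (14) higher in HN and 9.20% (8) lower, beside 3.15% and 2.75% of all tested genes. With the block limma called 5 higher and 3 lower, where 0.911% and 1.04% of all tested genes were called. With it edgeR called 6 higher and 3 lower, where 0.925% and 1.06% of all were called. The lists were chosen with earlier results of these data known, so no conclusion is drawn from these shares. FGF and ERK signalling, the pathway that specifies primitive endoderm and that the medium of both lines inhibits, had 20 genes tested, of which limma and edgeR called 0 with or without the block, and a median difference of 0.02. At an unadjusted p under 0.05, limma without the block had 2 of them higher and 0 lower. With the block it had 6 higher and 2 lower, beside 1601 and 1480 of all 14276 tested genes. The 4 genes of the list that differed most were the immediate early gene Egr1 (−0.91), the feedback inhibitors Spry2 (0.86) and Spry4 (−0.81), and the phosphatase Dusp4 (0.62), and none exceeded the fold required. Among the genes that missed a call only by the fold were Spry4, Fgf4 (0.61) and Spry2. Their adjusted p by limma with the block was 5.86e-05, 2.63e-04 and 0.00113.

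The basement membrane list, matrix that endoderm lays down, had 10 genes tested, and with the block 1 was called higher and 1 lower. Lama1, a laminin chain of Reichert's membrane and of the early embryo, went from 263 ± 27.8 in R1 to 546 ± 88.9 in HN (log2 fold change 1.04), with an adjusted p by limma of 0.0612 without the block and 3.17e-09 with it, and by DESeq2 of 2.04e-04 without it. Col4a1, a collagen IV chain, went from 138 ± 41.3 to 55.8 ± 29.6 (−1.37), with 0.273 and 2.81e-05 by limma. In both genes the lines did not overlap, in opposite directions. Without date 3, limma without the block called Col4a1 lower (adjusted p = 0.0203) and did not call Lama1 (0.102). The collagen chaperone Serpinh1 (−0.87), the collagen IV chain Col4a2 (−0.87), the laminin chain Lamc1 (0.86) and the proteoglycan Hspg2 (0.66) were below the fold required. The median of the list was 0.09.

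The visceral endoderm list had 9 of 16 genes tested, with a median of −0.16. Apoe, an apolipoprotein, was called higher with the block, from 1243 ± 730 in R1 to 3269 ± 1726 in HN (1.46), with an adjusted p by limma of 0.434 without the block and 5.18e-12 with it. Per kb of exon Apoe stood at 581 normalized counts in R1 and 1529 in HN. The receptor Cubn (−0.53), the retinol carrier Rbp4 (−0.50), the coactivator Cited1 (−0.50) and the iron carrier Trf (−0.47) were not called. Of the secreted products of the visceral layer, Trf had 103 ± 40.5 normalized counts in R1 and 71.7 ± 14.0 in HN. Apob, an apolipoprotein, had 17.6 ± 6.81 and 19.9 ± 3.29. Per kb of exon Trf stood at 31.2 in R1 and 21.6 in HN, Apoa1 at 3.29 and 1.47, and Apob at 1.26 and 1.43. Afp stood at 0.693 and 0.512 per kb, and Ttr at 0.299 and 0.199. Ttr reached at most 1.06 normalized counts in any library and Afp at most 4.04, and Apoa1 at most 5.39, and these were under the filter.

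The parietal endoderm list had 6 of 8 genes tested, with a median of −0.29. Fst, follistatin, was called higher with the block, from 16.0 ± 13.2 in R1 to 59.0 ± 19.2 in HN (2.11), with an adjusted p by limma of 0.316 without the block and 3.09e-05 with it. Thbd, thrombomodulin of the parietal layer, was at 0 in R1 replicate 1 and HN replicate 1 and reached at most 5.41 elsewhere, under the filter. The others tested with the largest differences, Tfpi (−0.56), Vim (−0.47), Snai1 (−0.32) and Pth1r (−0.27), were not called.

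Among 16 relatives and ligands of the 9 genes 13 were tested, with a median of −0.40. Pdgfrb, the sister receptor of Pdgfra, was called lower with the block, from 60.5 ± 22.7 in R1 to 21.6 ± 5.52 in HN (−1.39), with an adjusted p by limma of 0.276 without the block and 9.33e-05 with it. The GATA relative Gata3 (1.47), the ligand Pdgfc (0.96), the GATA relative Gata1 (−0.85) and the DAB2 relative Dab1 (−0.76) were not called by limma. With the block edgeR called Pdgfc higher (1.03, adjusted p = 0.00538).

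The definitive endoderm and mesendoderm list had 7 of 8 genes tested, with a median of 0.28. The mesoderm factor T was called higher with the block (25.7 ± 17.4 in R1 and 53.5 ± 11.9 in HN, 1.21, adjusted p by limma of 0.620 without the block and 0.00100 with it). The chemokine receptor Cxcr4 was as well (7.13 ± 2.21 and 23.1 ± 10.1, 1.51, adjusted p by limma of 0.572 and 0.0106). T overlapped between the lines and Cxcr4 did not. Eomes (0.96), Hhex (−0.71), Gsc (−0.37) and Lhx1 (−0.37) were not called.

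The 12 epiblast and naive pluripotency genes had 0 calls between the lines by limma, edgeR or DESeq2 and a median of 0.34. At an unadjusted p under 0.05, limma had 4 of them higher and 1 lower without the block, and 9 higher and 1 lower with it. Zfp42 (Rex1), a naive marker, went the other way from most, from 2092 ± 258 in R1 to 1209 ± 129 in HN. Its log2 difference of −0.79 was below the fold required, with an adjusted p by limma of 0.195 without the block and 6.37e-08 with it, and by DESeq2 of 0.00283 without it. Prdm14 (0.69), Tfcp2l1 (0.56) and Klf4 (0.52) were also below the fold required, as was Nanog, the counterpart of Gata6 (0.28). Of the fibroblast markers tested, Thy1 was called lower with the block, from 33.3 ± 8.16 in R1 to 12.4 ± 7.67 in HN (−1.54), with an adjusted p by limma of 0.553 without the block and 0.00112 with it. Thy1 thus moved in the direction of Hnf4a, while the summed fibroblast level overlapped between the lines, at 45.9 to 162 in R1 and 16.3 to 93.1 in HN. Its part in the Hnf4a result was not tested. The other fibroblast markers tested, Fbln2 (−0.87), Col6a3 (−0.57), Col1a2 (−0.45), Col1a1 (−0.13) and Col3a1 (0.11), were not called. The 4 trophoblast markers tested, Cdx2 (1.11), Tfap2a (0.61), Hand1 (0.24) and Krt7 (−0.075), had 0 calls by limma, edgeR or DESeq2 and 0 at an unadjusted p under 0.05 by limma without the block, and their median was 0.42.

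**Figure D4:**
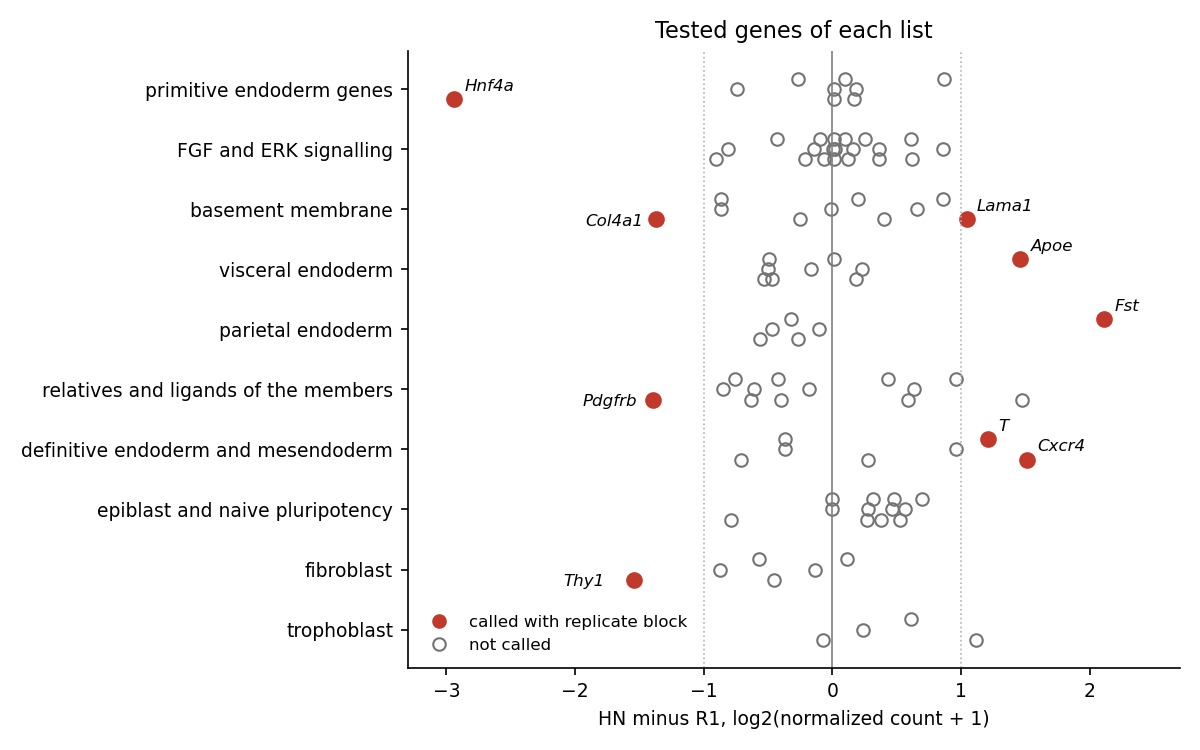
Difference of HN from R1 in log2(normalized count + 1) for each tested gene of each list, 1 point per gene. Filled red points were called by limma with the date block (adjusted p under 0.05 and beyond the dotted lines at a log2 fold change of 1) and open grey points were not; Hnf4a at −2.94 is the lowest point of all lists, and limma called 0 of the points without the block, where DESeq2 called Hnf4a and Lama1.

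Protein-coding genes within 1 Mb of each member were compared between the lines to see whether a member moved with its surroundings. Hnf4a had 24 such tested neighbours, with 0 called with or without the block and a median log2 difference of −0.03, from −0.997 to 0.761. Gata4 had 15, of which 13 were above 0 with a median of 0.18, and Sox7 had 14, of which 13 were above 0 with a median of 0.29. Since those 2 genes are near each other, their neighbours are partly the same, and Gata4 itself (0.87) is among the neighbours of Sox7 above 0. Gata6 had 9, of which 9 were above 0 with a median of 0.17. Sox17 had 5, of which 0 were above 0, with a median of −0.21. The neighbours of the remaining members lay on both sides of 0. Over all 14276 tested genes, 6922 were above 0. Of the 104 neighbours of the 9 genes, 0 were called by limma or edgeR with or without the block, and 3 were higher and 2 lower at an unadjusted p under 0.05 by limma without it.

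Over the 6 libraries, the 8 genes other than Hnf4a varied together, with Pearson r of log2 values between 0.35 and 0.95 (median 0.75 over 28 pairs). Hnf4a had r between −0.34 and 0.44 with them (median 0.04 over 8 pairs). The points share libraries and dates, so these are descriptions of 6 libraries with no test.

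The 2 tested genes most like each member over the 6 libraries were found by the same r. For Hnf4a they were Nat9 (r = 0.993) and Gcfc2 (0.992). Nat9 had normalized counts of 51.1, 40.7 and 47.2 in R1 and of 15.8, 21.3 and 28.2 in HN, without overlap of the lines. It was picked for its likeness to Hnf4a in these libraries, so this separation is not a second result. For the other members they were Cd82 and Pmp22 (Gata4), Cdk5r1 and Rnf170 (Gata6), Asic4 and Ankrd63 (Sox17), Cr2 and Unc79 (Sox7), Neurog1 and Bhlhe22 (Foxa2), Tspan32 and Rabep1 (Dab2), Ptpn18 and Plch2 (Pdgfra), and Ddn and Pcdh10 (Amn). With 6 libraries and 14276 genes, between 31 (Dab2) and 434 (Sox7) genes had an r above 0.95 with a member, so the names mark closeness in these libraries only.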

How the data were processed

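Total RNA of R1 and HN mESCs was sequenced as paired-end reads from TruSeq RNA v2 libraries, which do not mark strand. Alignment by the authors used STAR and the mm10/GRCm38 build. Picard then served to drop PCR duplicates, HTSeq to count reads over exons and DESeq2 to scale the libraries. Tool versions and the annotation are not given in the sources used here. The deposited values are a signal per gene, a normalized count, and 100% of them were whole multiples of 1 read (tolerance 0.01), so reads were recovered. Unused columns numbered 0, and 27 rows whose symbols had become dates were kept without a name.

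Values were compared as log2(normalized count + 1) with limma 3.58.1 in R 4.3.3. Fold changes on this scale understate those of weak genes. edgeR 4.0.16 and DESeq2 1.42.0 were run on the recovered reads as alternatives. The scripts were tested on simulated data. The pairing of replicates came from the collection dates in the labels, and same-date deviations of R1 and HN correlated at 0.25, 0.69 and 0.77. R1 replicate 1 correlated more with HN replicate 2, of another date (0.34), than with HN replicate 1. The remaining pairs of unlike dates lay between −0.71 and −0.098. The study names no block, so the main fit had none. Replicates of a line differed by more than counting noise (chi-square per degree of freedom 4.70 to 9.89) and were counted as separate samples. The study describes 3 batches of cells collected on different dates, and p-values measure the spread between these libraries of 1 line each. Counts of 3 reads or fewer were taken as at the detection limit. Without molecular identifiers, the reads kept after removal of duplicates may still not be independent molecules.

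The 9 genes and the lists were chosen with earlier results of these data known. Named from each list were the called genes and 4 others with the largest differences, or as many as were tested. Nanog, Fgf4, Col3a1 and the untested markers Ttr, Afp, Apoa1 and Thbd, and Apob, were named outside this rule, after their values were seen. Lengths and positions came from GENCODE M21.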

Additional observations from a re-analysis of the deposited data

How the results depend on the processing

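The alternatives were the date (replicate) block, edgeR and DESeq2 on recovered reads, pseudocounts of 0.1 and 10, other filters, median centring and each library left out. DESeq2 with the block, the fit without date 3 and the interaction were added after the data were seen. A minimum mean of 50 left none of the 9 genes. Genes of the set called higher in HN numbered 0 throughout. Those called lower numbered 1 (Hnf4a) with the replicate block, with edgeR and the block, with DESeq2 with or without the block, and without date 3, and 0 to 1 with 1 library left out. Over all genes, 17 were called higher and 18 lower; the block gave 130 and 148, edgeR with the block 132 and 152, DESeq2 45 and 30, and DESeq2 with the block 76 and 59. Median centring called 27 higher. Leaving out 1 library gave 3 to 30 higher and 4 to 26 lower. The pairing changed no other call of the 9 genes. Genes of the set differing among dates numbered 3 to 7, against 6, with 1 library left out, and over all genes 3292 to 7545 against 6569, or 4090 at a minimum mean of 50, where fewer genes were tested.

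Small differences turned over. Sox7 gave −0.080 with DESeq2, −0.072 with edgeR and −0.026 with edgeR and the block. Foxa2 gave −0.27, −0.26 and −0.19 with the same, and −0.038 at a pseudocount of 10. Pdgfra gave −0.18, −0.17 and −0.049 with the same, −0.0033 with DESeq2 and the block, and −0.046 at a pseudocount of 10. Dab2 gave −0.34 without date 3 and −0.018 at a pseudocount of 0.1. With 1 library left out, Gata4 ran from 0.14 to 1.62, Gata6 from −0.43 to 0.85, Sox17 from −1.43 to −0.07, Sox7 from −0.32 to 0.75, Foxa2 from −0.60 to 0.92, Hnf4a from −3.42 to −2.44, Dab2 from −0.59 to 0.47, Pdgfra from −0.55 to 0.52 and Amn from −0.83 to 0.43. The cause was not tested.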
